A study of Arabidopsis thaliana with 30 samples.

Results

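Tau and phi glutathione transferases are the large plant-specific classes of an enzyme family that joins the tripeptide glutathione to reactive or foreign molecules, or reduces peroxides with it. The conjugates are carried into the vacuole and broken down there, and several phi enzymes also bind or supply glutathione to defence compounds of indole origin. Many genes of both classes sit in tandem runs on the chromosomes, and in Arabidopsis several are widely used as readouts of chemical, oxidative and pathogen stress. The genes were picked by locus identifier as members of the 2 classes, with earlier results of these data known: GSTU1 to GSTU28 for the 28 tau genes and GSTF2 to GSTF14 for the 13 phi genes, 41 of the 32753 genes that the deposited table holds once transcript models are summed. All 41 loci were found in it, and transcript abundance is given as TPM, the share of all transcripts in a library, scaled for transcript length.

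The study sequenced polyadenylated RNA from roots of Arabidopsis thaliana Col-0 seedlings, taken 7 days after germination and treated for 4 h, in 30 libraries that form 10 groups of 3. In the first set, RiD-RGI1/BAK1 plants received 1 µM rapamycin or mock, and wild-type plants received the same 1 µM rapamycin or mock. In the second, RiD-RGI5/BAK1 plants received 100 nM rapamycin or mock, beside wild-type plants with 100 nM rapamycin or mock. In the third, wild-type plants received 100 nM RGF1, a root meristem growth factor peptide, or mock. Sample titles name the mock DMSO in both rapamycin sets and mock in the RGF1 set. RGI1 and RGI5 are receptor kinases for RGF peptides, BAK1 is a co-receptor kinase, and per the title of the series rapamycin brings engineered versions of receptor and co-receptor together, so that no peptide is needed. These genotypes are named the RGI1 line and RGI5 line below. The sources used here give neither the promoter of the constructs nor the number of plants behind a library, nor whether a line is 1 clone or the libraries of a group come from separate cultures. P-values therefore cover only the spread among these libraries. In roots taken whole, fewer cells of a type and less RNA per cell cannot be told apart.

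Both constructs were visible in their lines. RGI1 read 200–237 TPM in the 6 libraries of the RGI1 line against 26.8–39.1 TPM in the 18 wild-type libraries, RGI5 read 45.5–51.1 TPM in the RGI5 line against 2.01–3.63 TPM in wild type, and BAK1 read 180–207 TPM in the RGI1 line and 101–121 TPM in the RGI5 line against 51.3–57.5 TPM in wild type. The 12 root markers summed to 439–590 TPM and the 10 markers of green shoot tissue to 66.5–199 TPM over all libraries. TPM keep no sequencing depth, so no counting error can be given, and a single transcript, AT1G15405, took 3.95–11.9% of all TPM. In the RGI5 line, mock replicate 4 and rapamycin replicate 3 stood apart from the other libraries of their groups for GSTF6 and GSTF7, and the rapamycin responses of GSTF6, GSTF7 and GSTU10 in that line are given with and without them below.

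**Figure D1:**
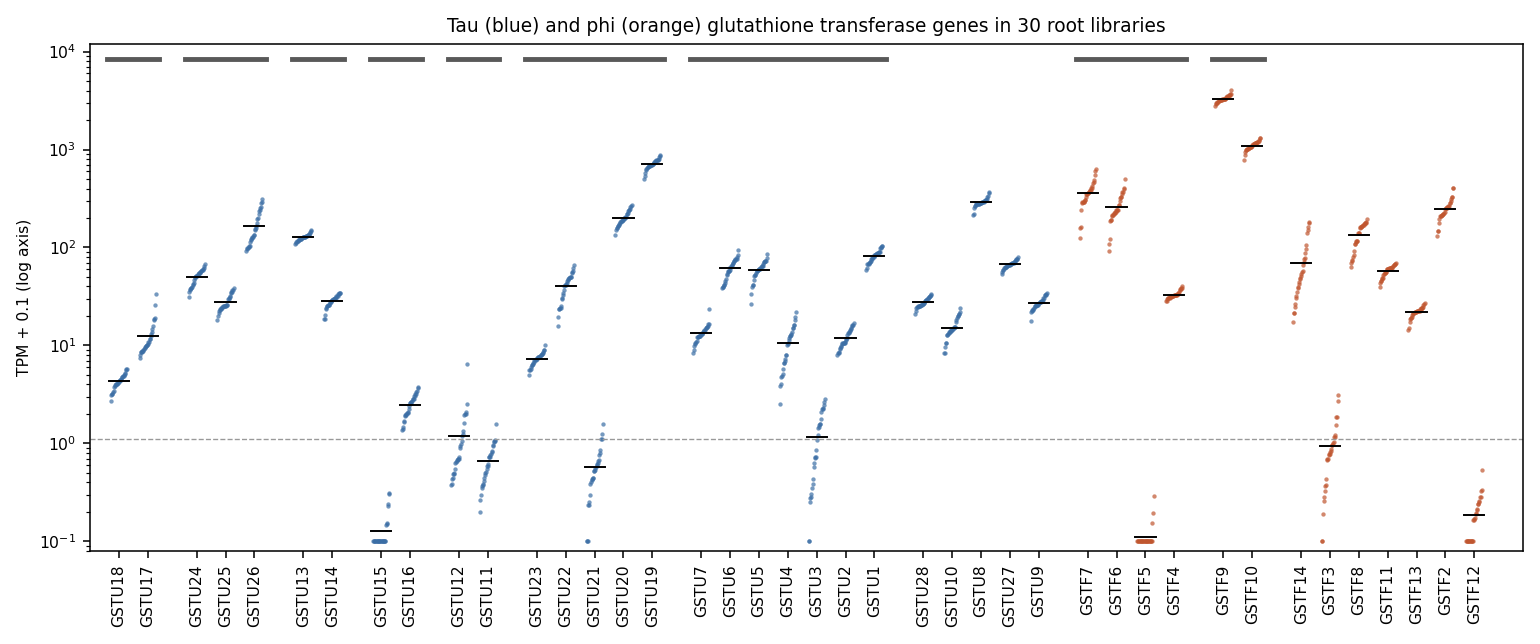
Level of each of the 41 genes in the 30 libraries, as TPM + 0.1 on a log axis. Each point is a library, points are sorted from low to high within a gene, the short black line is the mean, grey bars span tandem clusters in chromosome order, genes to the right of the bars of their class stand alone, and the dashed line marks 1 TPM. GSTF9 and GSTF10 lie above the other genes, and GSTF5, GSTU15 and GSTF12 lie at or near 0.

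The 41 genes together made up 0.679–0.885% of all TPM in a library. The 13 phi genes summed to 4928–6497 TPM with a median over libraries of 5502 TPM, and the 28 tau genes to 1701–2356 TPM with a median of 2052 TPM. The phi total was carried by the neighbouring genes GSTF9 and GSTF10, which summed to 3784–5317 TPM. Without them the other phi genes summed to 571–1822 TPM, below the tau total by their median of 1172 TPM. GSTF10 is known as a partner of BAK1.

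GSTF9 alone held 43.4% of the summed mean TPM of the 41 genes, with 2783 TPM in the lowest library, a median of 3278 TPM and 4060 TPM in the highest. GSTF10 followed with 791, 1105 and 1323 TPM as its lowest, median and highest values, and the most abundant tau gene, GSTU19, a xenobiotic-inducible enzyme, with 500, 700 and 890 TPM. GSTF9 lay above GSTF10 in every library without overlap, whereas the ranges of GSTF10 and GSTU19 met, and the range of GSTF7, 125–633 TPM, crossed the lower end of GSTU19. From GSTF7 down to GSTU20, the fourth to the eighth gene by mean, neighbours in the order overlapped: GSTF7, GSTU8, GSTF6, GSTF2 and GSTU20 averaged 360 ± 117, 290 ± 32.7, 261 ± 91.6, 249 ± 65.0 and 201 ± 35.9 TPM (SD over 30 libraries). In all, 11 genes averaged at least 100 TPM, 30 at least 10 TPM and 35 at least 1 TPM.

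The other 6 genes averaged under 1 TPM. GSTF3 averaged 0.831 TPM and was at or above 1 TPM in 8 libraries, and GSTU11 averaged 0.566 TPM and GSTU21 0.473 TPM. GSTF12, known as TRANSPARENT TESTA 19 and needed for anthocyanin and proanthocyanidin accumulation in the vacuole, was listed at 0 in 13 libraries with a maximum of 0.432 TPM. GSTU15 was listed at 0 in 23 libraries and GSTF5 in 27. GSTU11, GSTU15, GSTU21, GSTF5 and GSTF12 never passed the filter of 1 TPM in at least 3 libraries of a fit and were tested in no comparison, and GSTU3 and GSTF3 passed it in some of the fits, so that 34 to 36 of the 41 genes were tested, depending on the set.

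In the TAIR10.1 annotation, 29 of the 41 genes fall into 9 tandem clusters, a cluster being genes of 1 class with at most 5 other annotated genes between neighbours. The clusters hold 23 tau and 6 phi genes, and the other 12 stand alone. Coding sequences were 56.3–85.5% identical between tau genes of the same cluster (median 74.6% over 38 pairs) and 45.4–76.8% between tau genes of different clusters (median 55.4% over 340 pairs). A tau and a phi coding sequence were 39.5–51.0% identical. Reads of close copies can be divided wrongly between them, and the pairs most alike here were GSTF2 and GSTF3 at 94.5% and GSTF6 and GSTF7 at 94.3% identity, with unbroken shared runs of 74 and 116 bases. No other pair exceeded 85.5%.

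Copies of a cluster were far apart in level. In the cluster of 7 tau genes on chromosome 2, GSTU1 averaged 81.9 TPM and was above GSTU2, its closest copy at 85.5% identity, in 30 of 30 libraries, by 6.96 times on average. GSTU3 averaged 1.07 TPM in the same cluster, while GSTU5 at 58.8 and GSTU6 at 61.1 TPM exchanged places between libraries, with GSTU5 above GSTU6 in 14. In the cluster of 5 on chromosome 1, GSTU19 averaged 711 TPM, GSTU20 201 TPM, GSTU22 40.3 TPM, GSTU23 7.20 TPM and GSTU21 0.473 TPM. GSTU13, an enzyme of indole glucosinolate metabolism, was 4.51 times GSTU14, and GSTU17, known from light and drought signalling, was 2.96 times GSTU18, each in 30 of 30 libraries. GSTU16 averaged 2.39 TPM beside GSTU15 at 0.0279 TPM, and GSTU12 1.08 TPM beside GSTU11 at 0.566 TPM. GSTU26 averaged 166 TPM, 3.34 times GSTU24 and 6.08 times GSTU25 in its cluster.

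The cluster of 4 phi genes at the start of chromosome 1 holds the genes with the largest responses next to a copy without a call. GSTF7 (AT1G02920) and GSTF6 (AT1G02930) averaged 360 and 261 TPM, GSTF5 (AT1G02940) was listed at 0 in most libraries, and GSTF4 (AT1G02950) kept to 28–40.1 TPM over all 30 libraries. GSTF7 was above GSTF6 in 30 of 30 libraries, and GSTF6 made up 38.2–46.1% of the summed TPM of the pair. GSTF6 has 2 transcript models in the table, of which the first carried 77.6% of its TPM and the second was listed at 0 in at least 1 library. GSTF7, GSTF5 and GSTF4 share a chromosome segment and a strand and differ in level, and GSTF7 and GSTF4, which were tested, also in response. For this reason the 300 bases before their annotated starts are printed. They were read from the RefSeq TAIR10.1 assembly by locus identifier, at chr1:659981-660280 for GSTF7, chr1:664291-664590 for GSTF5 and chr1:666472-666771 for GSTF4, all on the minus strand and written 5′ to 3′ in the direction of the gene. The deposited table carries no coordinates, and its build is not given in the sources used here. Capitals mark TTGAC on either strand (GTCAA where reversed), the core of the W box that WRKY factors bind. TGACG, the core of the as-1 element of TGA factors, was searched for on both strands too and is in none of the 3 windows.
GSTF7: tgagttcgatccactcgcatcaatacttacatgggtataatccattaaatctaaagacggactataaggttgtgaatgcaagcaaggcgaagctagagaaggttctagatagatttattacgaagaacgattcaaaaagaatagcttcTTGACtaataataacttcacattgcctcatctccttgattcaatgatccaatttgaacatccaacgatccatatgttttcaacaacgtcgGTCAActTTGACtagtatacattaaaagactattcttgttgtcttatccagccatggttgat
GSTF5: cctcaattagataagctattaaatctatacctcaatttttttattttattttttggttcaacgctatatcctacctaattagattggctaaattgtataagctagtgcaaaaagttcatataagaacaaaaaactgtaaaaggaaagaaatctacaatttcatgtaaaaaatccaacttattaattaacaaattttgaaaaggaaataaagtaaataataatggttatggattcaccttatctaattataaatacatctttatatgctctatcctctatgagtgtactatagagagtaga
GSTF4: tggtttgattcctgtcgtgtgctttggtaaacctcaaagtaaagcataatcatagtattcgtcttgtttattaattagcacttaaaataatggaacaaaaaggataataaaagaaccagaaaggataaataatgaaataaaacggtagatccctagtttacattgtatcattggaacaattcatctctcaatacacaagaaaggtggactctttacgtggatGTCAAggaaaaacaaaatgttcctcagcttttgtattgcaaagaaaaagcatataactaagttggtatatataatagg

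The GSTF7 window holds TTGAC at 3 places, the GSTF4 window at 1 and the GSTF5 window at none. Over all members, 26 of 41 windows held TTGAC at least once (63.4%), against 50.4% of the 27443 windows of all protein-coding genes, and 17 of 41 held TGACG (41.5%), against 21.3% of all. By class, TGACG was in 13 of 28 tau windows (46.4%) and 4 of 13 phi windows (30.8%), and TTGAC in 64.3% of tau and 61.5% of phi windows. Among the 12 genes that rose with rapamycin in the RGI1 line, described next, 10 windows held TTGAC (83.3%) and 5 held TGACG (41.7%), against 13 (54.2%) and 10 (41.7%) of the 24 tested genes that did not pass. A match is no evidence of binding, and no test was made of these shares.

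In the RGI1 line, 12 of the 36 genes tested rose with 1 µM rapamycin and none fell, at an adjusted p under 0.05 in limma with Benjamini-Hochberg adjustment over all 19634 genes. Of all genes tested, 2.56% were called higher and 1.49% lower. Groups did not overlap for 15 of the 36 genes with rapamycin higher and 1 with it lower, against 13.7% and 6.17% of all genes. The 12 were 9 of 25 tau genes and 3 of 11 phi genes. The median log2 fold change was 0.27 over the 36 genes, 0.31 over tau and 0.07 over phi, against 0.03 over all genes tested. A log2 fold change here is the mean log2(TPM + 1) of the first group minus that of the second, a scale on which weakly expressed genes appear to change less than they do.

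The phi genes GSTF6, which has been linked to camalexin synthesis, and GSTF7, a pathogen-responsive gene, had the largest changes. GSTF6 read 368, 331 and 354 TPM in the RGI1 line with rapamycin, against 121, 110 and 91.5 TPM in the line under mock, and every rapamycin library lay above every mock library by more than the spread within either group. Its log2 fold change was 1.71 (SE 0.13, adjusted p = 4.08e-05 in limma). GSTF7 read 452, 409 and 427 TPM with rapamycin and 161, 160 and 125 TPM under mock, again without overlap (1.54, SE 0.11, adjusted p = 4.08e-05 in limma). Since the reads of these copies may be exchanged, their sum is the safer quantity, and it averaged 780 ± 40.0 TPM with rapamycin and 256 ± 34.6 TPM under mock (SD, n = 3 each). GSTF2, a phi enzyme that binds camalexin and other indoles, read 195, 211 and 178 TPM with rapamycin and 149, 148 and 131 TPM under mock (0.45, SE 0.07, adjusted p = 0.00308 in limma).

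Among the tau genes GSTU10 changed most, with 21.8, 19 and 18.2 TPM with rapamycin in the RGI1 line and 9.52, 8.30 and 8.35 TPM under mock. The groups were apart by more than their spread (1.08, SE 0.09, adjusted p = 4.70e-05 in limma). GSTU4 read 19.5, 18.2 and 21.9 TPM with rapamycin and 12.3, 9.89 and 11.9 TPM under mock (0.75, SE 0.10). GSTU24, which like GSTU25 conjugates the explosive trinitrotoluene, read 49.3, 54.9 and 60.0 TPM with rapamycin and 39.8, 34.9 and 31.2 TPM under mock (0.62, SE 0.09). Its neighbour GSTU25 read 30.1, 29.5 and 36.9 TPM with rapamycin and 22.5, 20.02 and 24.2 TPM under mock (0.51, SE 0.10). None of these genes had overlapping groups, and the adjusted p in limma was 0.000952 for GSTU4, 0.00214 for GSTU24 and 0.0147 for GSTU25.

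The other 5 tau genes changed by less. GSTU1 read 103, 101 and 104 TPM with rapamycin and 80.2, 75.9 and 67.4 TPM under mock (0.46), and its neighbour GSTU2 12.5, 13.6 and 13.8 TPM with rapamycin and 9.32, 9.55 and 10.3 TPM under mock (0.42, SE 0.07). GSTU9 read 25.8, 28.1 and 28 TPM with rapamycin and 22.7, 22.1 and 17.5 TPM under mock (0.39). The abundant genes GSTU8 and GSTU19 are the largest of these in TPM. GSTU8 read 293, 301 and 304 TPM with rapamycin and 263, 219 and 213 TPM under mock (0.38), and GSTU19 read 673, 694 and 732 TPM with rapamycin and 613, 538 and 500 TPM under mock (0.35). None of the 5 had overlapping groups, where 13.7% of all genes were higher without overlap. The adjusted p in limma was between 0.000847 for GSTU1 and 0.0362 for GSTU9.

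The copies in the tandem clusters did not all pass. GSTF4, next to GSTF6 and GSTF7, averaged 32.1 ± 0.642 TPM with rapamycin in the RGI1 line and 30.9 ± 1.58 TPM under mock, with a log2 fold change of 0.05 and a 95% interval of -0.06 to 0.17. GSTU26, next to GSTU24 and GSTU25, averaged 285 ± 30.4 and 260 ± 26.5 TPM (0.13). In the chromosome 2 cluster GSTU1, GSTU2 and GSTU4 rose, and GSTU5, GSTU6 and GSTU7 had log2 fold changes of 0.24, 0.09 and 0.31 without a call. GSTF9 and GSTF10, the most abundant pair, had 0.10 and -0.01. GSTF8 and GSTF14 were the lowest, at -0.21 and -0.23, neither called. The summed TPM of all tau genes averaged 2237 ± 105 with rapamycin and 1898 ± 138 under mock, and that of phi genes other than GSTF9 and GSTF10 1184 ± 38.7 and 622 ± 45.2 (SD, n = 3 each).

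The 12 root markers summed to 456–494 TPM with rapamycin and 499–502 TPM under mock in the RGI1 line, the 10 green shoot markers to 103–165 TPM and 129–145 TPM, and AT1G15405 took 8.51–11.9% and 10.7–11.2% of all TPM; their part in the result was not tested. With all 30 libraries in a single fit, 7 of the 12 genes were called and GSTF2, GSTU2, GSTU4, GSTU9 and GSTU19 were not. With median-ratio scaling 10 genes were called higher and 1 lower, GSTF8 (adjusted p = 0.0457 in limma). GSTU9 and GSTU19 were not called there (adjusted p = 0.0504 and 0.0599 in limma). GSTU19 and GSTU9 each kept the call in 2 of 6 fits that leave out a library, losing it without mock replicate 3 or 4 or rapamycin replicate 2 or 3 of the line, and GSTU25 lost it without mock replicate 3.

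**Figure D2:**
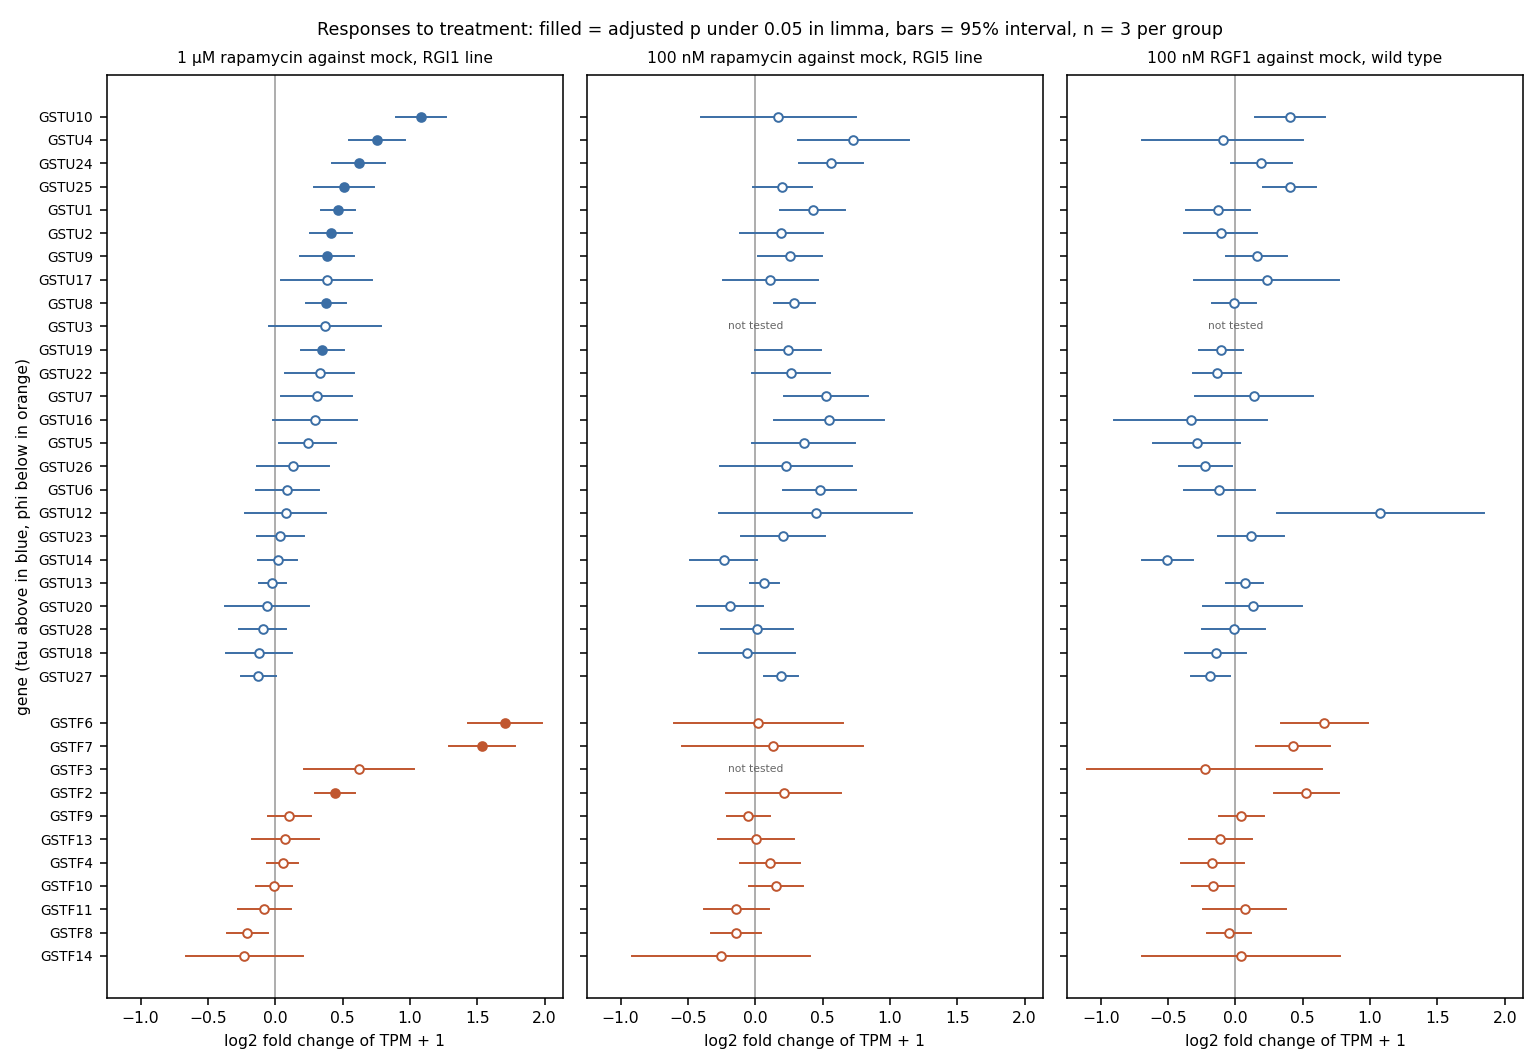
Log2 fold change of TPM + 1 for the tested genes in 3 responses, from left to right 1 µM rapamycin against mock in the RGI1 line, 100 nM rapamycin against mock in the RGI5 line and 100 nM RGF1 against mock in wild type. Points are estimates from 3 against 3 libraries, bars are 95% intervals, and filled points have an adjusted p under 0.05; 12 points are filled in the RGI1 line and none in the other panels.

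Wild-type plants given the same 1 µM rapamycin had no called gene among the 36 in limma, where 0% of all genes were called, and 8 of the 36 had an unadjusted p under 0.05, against 6.57% of all genes. GSTF6 read 241, 224 and 187 TPM with rapamycin and 270, 215 and 297 TPM under mock in wild type, and GSTF7 365, 292 and 283 TPM with rapamycin and 350, 291 and 348 TPM under mock. GSTF2 read 210, 219 and 221 TPM with rapamycin and 251, 268 and 282 TPM under mock, which is lower without overlap but was not called (-0.30, adjusted p = 0.436 in limma). In all, 6 of the 36 genes were lower and 4 higher without overlap, against 6.81% and 4.52% of all genes. The lower ones include GSTU12, which passed the filter only through the mock libraries of wild type. The difference between the response of the RGI1 line and that of wild type was itself tested. It was above 0 and called for 9 of the 36 genes, where 0.82% of all genes were called higher. This difference uses the same mock libraries of the line as the response above, so low values there enter both.

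Those 9 were GSTF6 (1.96, SE 0.18, adjusted p = 0.000825 in limma), GSTF7 (1.62, SE 0.16), GSTU10 (1.04, SE 0.12), GSTU25 (0.79), GSTF2 (0.75, SE 0.10), GSTU24 (0.68), GSTU4 (0.65), GSTU2 (0.62) and GSTU1 (0.45), as differences of log2 fold changes. GSTU8, GSTU9 and GSTU19 rose in the line, but their difference from wild type was not called. Without mock replicate 3 of the RGI1 line 5 genes were called, and with all 30 libraries in a single fit 2. GSTU4 kept its call in 2, GSTU24 in 4, GSTU1 in 7 and GSTU25 in 10 of 12 fits that leave out a library, and the other 5 genes kept it in all 12.

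**Figure D3:**
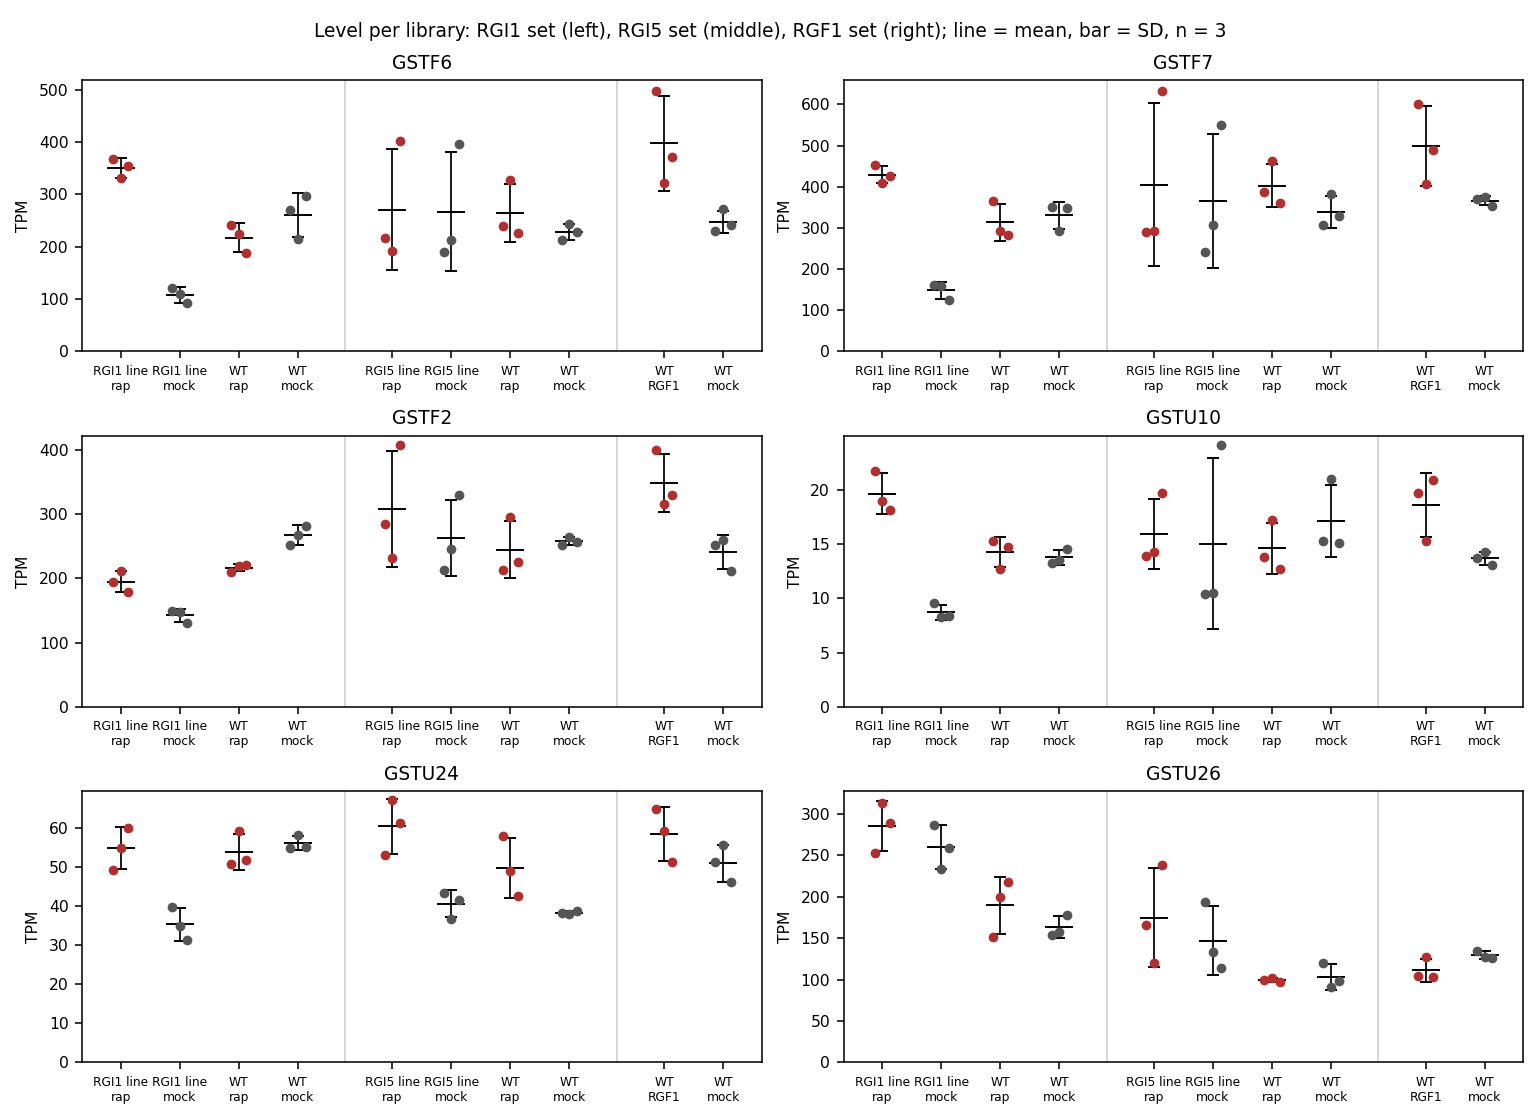
TPM of GSTF6, GSTF7, GSTF2, GSTU10, GSTU24 and GSTU26 in every library, with red points for rapamycin or RGF1 and grey points for mock; the black line is the group mean and the bar the SD of 3 libraries, and axes start at 0. In the RGI1 line the mock libraries of GSTF6 lie at 91.5–121 TPM, below those of every other group, and the GSTU26 libraries lie above those of wild type in the same set.

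The lines also differed from wild type without rapamycin. Under mock, 15 of the 36 genes were lower in the RGI1 line than in its wild type and 3 were higher, at an adjusted p under 0.05 in limma, where 14.5% of all genes were lower and 2% higher. The lower genes were 10 of 25 tau and 5 of 11 phi genes. The tau count includes GSTU12, which passed the filter only through the wild-type mock libraries. The median log2 difference was -0.24 over the 36 genes, against -0.09 over all genes. With median-ratio scaling of the libraries, which brings the median of all genes to 0.00, 12 were lower and 5 higher, and GSTU1, GSTU7 and GSTU8 were no longer called lower.

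The largest differences were again in phi genes. GSTF6 read 121, 110 and 91.5 TPM in the RGI1 line under mock and 270, 215 and 297 TPM in wild type under mock (-1.27, SE 0.13, adjusted p = 7.25e-05 in limma). GSTF7 read 161, 160 and 125 TPM in the line and 350, 291 and 348 TPM in wild type (-1.15, SE 0.11), and GSTF2 149, 148 and 131 TPM in the line and 251, 268 and 282 TPM in wild type (-0.90, SE 0.07, adjusted p = 1.23e-05 in limma). All libraries of the line lay below all of wild type for each, as for 19 of the 36 genes and 34.2% of all genes. Higher without overlap were 6 of the 36 and 5.12% of all genes. GSTF14 read 21.5, 30.3 and 24.4 TPM in the line and 50.8, 65.8 and 56.4 TPM in wild type (-1.16, SE 0.20). GSTF8, a stress-inducible gene used as a marker of early defence, read 83.6, 75.1 and 79.6 TPM in the line and 117, 117 and 113 TPM in wild type (-0.54, SE 0.07).

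Of the tau genes, GSTU22 read 23.2, 19.5 and 15.5 TPM in the RGI1 line and 32.5, 36.9 and 34.2 TPM in wild type under mock (-0.81). GSTU12 read 0.340, 0.450 and 0.399 TPM in the line and 1.16, 1.51 and 1.87 TPM in wild type (-0.84), near the filter limit. It passed the filter only through these wild-type libraries and was not tested when any of them was left out. Its call and its lack of overlap are therefore no support for a difference. GSTU10 read 9.52, 8.30 and 8.35 TPM in the line and 13.3, 13.5 and 14.5 TPM in wild type (-0.60), and GSTU2 9.32, 9.55 and 10.3 TPM in the line and 16.04, 16.71 and 16.03 TPM in wild type (-0.69). None of these 4 genes had overlapping groups, where 34.2% of all genes were lower without overlap. GSTU24 and GSTU25 averaged 35.3 ± 4.30 and 22.2 ± 2.1 TPM in the line against 56.0 ± 1.76 and 35.9 ± 2.28 TPM in wild type (-0.66 and -0.67). GSTU19 averaged 551 ± 57.6 TPM in the line and 761 ± 21.5 TPM in wild type (-0.47). GSTU7, GSTU8 and GSTU1 were lower by less, at -0.48, -0.27 and -0.24.

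GSTU26, the remaining copy of the GSTU24 cluster, differed in the other direction. It read 287, 234 and 259 TPM in the RGI1 line and 154, 158 and 178 TPM in wild type under mock (0.67, SE 0.12, adjusted p = 0.00447 in limma). GSTU27 read 66.5, 72.1 and 67.3 TPM in the line and 59.3, 55.6 and 53.9 TPM in wild type (0.28), and GSTF9 3659, 3623 and 3304 TPM in the line and 2783, 3004 and 3206 TPM in wild type (0.24, adjusted p = 0.0457 in limma). GSTF9 and GSTU8 kept their calls in 2, GSTU7 in 3 and GSTU1 in 5 of 6 fits that leave out a library. In the single fit of 30 libraries GSTU1, GSTU7, GSTU10 and GSTU12 were not called.

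Other measurements moved with this contrast, and their part in it was not tested. The 12 root markers summed to 499–502 TPM in the RGI1 line and 553–590 TPM in wild type under mock, and the 10 green shoot markers to 129–145 TPM in the line and 99.9–116 TPM in wild type. Of the shoot markers, RBCS2B, RBCS3B and LHCB1.1 stayed under 0.38 TPM in both groups. RBCS1A read 16.8–19 TPM in the line and 7.59–8.58 TPM in wild type, and LHCB3 12.95–16.19 and 9.793–10.15 TPM. LHCA1 read 13.79–16.03 TPM in the line and 8.719–10.81 TPM in wild type, and PSBO1 25.37–29.04 and 20.75–25.09 TPM. LHCA4, PSAN and LHCB2.1 overlapped between the groups. AT1G15405 took 10.7–11.2% of all TPM in the line under mock and 6.21–7.48% in wild type.

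The 10 genes GSTF2, GSTF6, GSTF7, GSTU1, GSTU2, GSTU8, GSTU10, GSTU19, GSTU24 and GSTU25 were both lower in the RGI1 line under mock and higher in it with rapamycin. Both comparisons use the same 3 mock libraries of the line, so a low value there enters both, and the overlap is no independent result. The difference between the responses of the line and of wild type uses these libraries too, so its calls are not independent of either comparison. A further comparison, added after these values were seen, sets the line against wild type when both had 1 µM rapamycin and shares no library with the mock contrast, but shares its libraries with both rapamycin responses. There 7 of the 36 genes were higher in the line and 2 lower in limma, where 1.89% of all genes were higher and 6.15% lower.

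With rapamycin on both sides, GSTF6 read 368, 331 and 354 TPM in the RGI1 line and 241, 224 and 187 TPM in wild type (0.70, SE 0.13, adjusted p = 0.00520 in limma), and GSTU10 21.8, 19 and 18.2 TPM in the line and 15.3, 12.7 and 14.7 TPM in wild type (0.44, SE 0.09). GSTU26 read 253, 314 and 289 TPM in the line and 152, 199 and 218 TPM in wild type (0.60), as it had under mock. GSTF7 (0.46), GSTU4 (0.35), GSTU14 (0.23) and GSTU1 (0.21) were also called higher. GSTU14 read 30.6, 34.2 and 33.6 TPM in the line and 25.4, 30.5 and 27.4 TPM in wild type. GSTF14 read 21.3, 17.4 and 26.1 TPM in the line and 88.1, 57.1 and 48.8 TPM in wild type (-1.51, SE 0.20), and GSTF8 63.2, 69.8 and 73.0 TPM in the line and 92.3, 109 and 108 TPM in wild type (-0.58, SE 0.07). Of the 15 genes that were lower in the line under mock, GSTF14 and GSTF8 were lower here too, GSTF6, GSTF7, GSTU10 and GSTU1 were higher, and the other 9, such as GSTU19 (-0.09) and GSTF2 (-0.16), were not called.

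These calls varied with the libraries. Without wild-type rapamycin replicate 4, 5 genes were called, and in the single fit of 30 libraries only GSTF14 and GSTF8 were. GSTU1 kept its call in none, GSTU4 in 1 and GSTF7 and GSTU14 in 2 of 6 fits that leave out a library. GSTF6, GSTU10, GSTU26, GSTF14 and GSTF8 kept it in all 6.

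**Figure D4:**
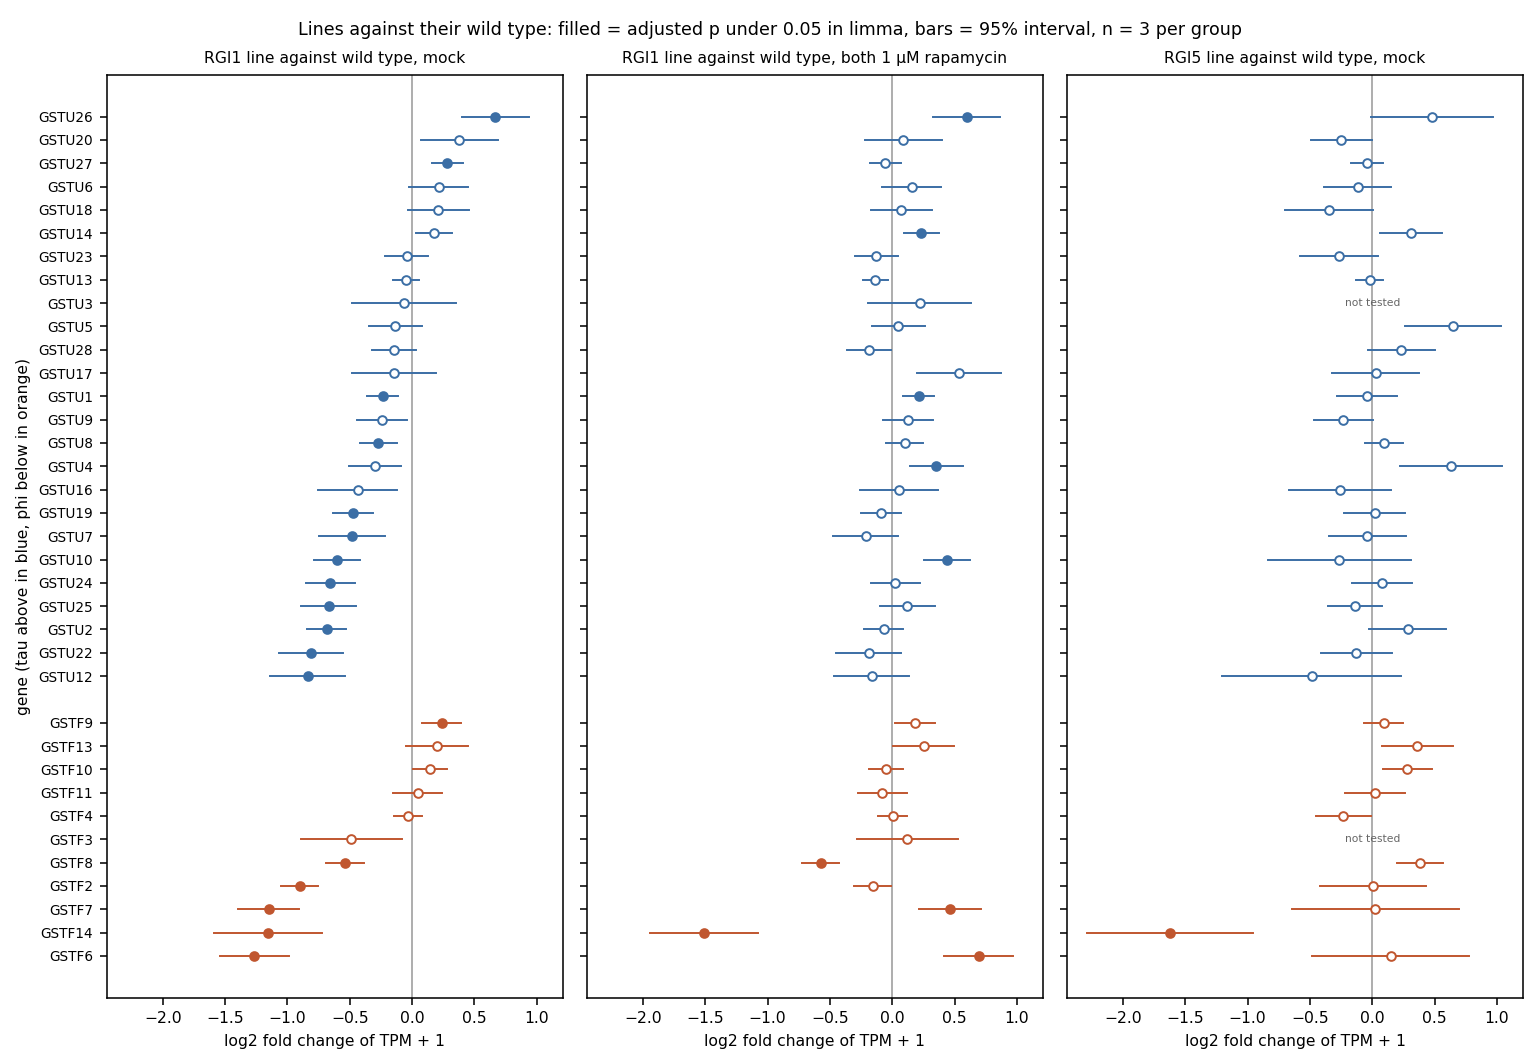
Log2 fold change of TPM + 1 of a line against its wild type, from left to right for the RGI1 line under mock, the RGI1 line when both had 1 µM rapamycin, and the RGI5 line under mock. Points are estimates from 3 against 3 libraries, bars are 95% intervals and filled points have an adjusted p under 0.05. GSTF6 and GSTF7 lie at -1.27 and -1.15 in the left panel and at 0.70 and 0.46 in the middle panel, and GSTF14 lies at -1.16, -1.51 and -1.62 across the panels. The wild type behind the right panel reads 140–184 TPM for GSTF14, above wild type under mock in the other sets.

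In the RGI5 line, given 100 nM rapamycin, none of 34 genes was called in limma, where 0% of all genes were called. At an unadjusted p under 0.05 there were 9 of the 34, all tau, against 11.1% of all genes, and 27 of the 34 log2 fold changes were above 0, against 69% over all genes. The median was 0.19 over the 34, 0.24 over tau and 0.01 over phi genes, against 0.06 over all genes. GSTU24 read 53.0, 67.0 and 61.1 TPM with rapamycin and 43.3, 36.7 and 41.6 TPM under mock (0.56, adjusted p = 0.207 in limma), and was called in the single fit of 30 libraries (adjusted p = 0.0307). GSTU4 read 10.6, 11.2 and 10.3 TPM with rapamycin and 4.995, 6.83 and 6.48 TPM under mock (0.73, adjusted p = 0.266 in limma), and GSTU1 99.5, 97.8 and 84.1 TPM with rapamycin and 69.5, 67.1 and 71.4 TPM under mock (0.43). These 3 genes had groups that did not overlap. In all, 10 of the 34 genes, all tau, were higher without overlap, where 15.3% of all genes were.

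GSTF6 and GSTF7 did not differ beyond their spread in the RGI5 line. GSTF6 read 218, 192 and 403 TPM with rapamycin and 189, 213 and 397 TPM under mock (0.02, 95% interval -0.61 to 0.65), and GSTF7 289, 291 and 633 TPM with rapamycin and 240, 307 and 549 TPM under mock (0.13, 95% interval -0.54 to 0.80). In each group 1 library lies well above the other 2, rapamycin replicate 3 and mock replicate 4. GSTU10 follows the same libraries, with 13.9, 14.3 and 19.7 TPM with rapamycin and 10.4, 10.5 and 24.1 TPM under mock (0.17). With both of these libraries left out, a fit added after the values were seen, the log2 fold change was 0.02 for GSTF6 (95% interval -0.32 to 0.37), 0.09 for GSTF7 (-0.23 to 0.42) and 0.40 for GSTU10 (0.03 to 0.76), and no gene was called. Set against the response of the RGI1 line, which had 10 times the dose, none of 36 genes differed at an adjusted p under 0.05 in limma, where 0.0199% of all genes did. An unadjusted p under 0.05 was found for 6 of the 36, against 1806 of the 20113 genes tested in all. The difference was -1.68 for GSTF6 (adjusted p = 0.0548 in limma) and -1.41 for GSTF7 (adjusted p = 0.148), with the RGI5 line lower. Without rapamycin replicate 3 of the RGI5 line both were called, at -2.01 (adjusted p = 0.00691 in limma) and -1.78 (adjusted p = 0.0100), without mock replicate 1 GSTF6 was (-1.89, adjusted p = 0.0327), and without mock replicate 4 neither was, at -1.36 and -1.07. Lines, doses and sets differ together here and cannot be told apart.

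In wild type, 100 nM rapamycin gave no call among the 34 genes in limma, where 0.00509% of all genes were called, and 10 of the 34 had an unadjusted p under 0.05, against 7.54% of all genes. The difference between the response of the RGI5 line and that of wild type was not called for any of the 34 genes either, where 0% of all genes were called. It had an unadjusted p under 0.05 for 5 of the 34, against 2130 of the 19652 genes tested in all. Under mock the RGI5 line differed from its wild type in 1 of 34 genes, where 0.351% of all genes were called lower. That gene was GSTF14, with 35.4, 53.8 and 78.7 TPM in the RGI5 line and 140, 176 and 184 TPM in wild type (-1.62, SE 0.31, adjusted p = 0.0447 in limma), lower without overlap as were 15.4% of all genes. With rapamycin on both sides, a comparison added after the values were seen, it read 31.8, 71.5 and 38.3 TPM in the line and 162, 106 and 150 TPM in wild type (-1.61, adjusted p = 0.0829), and none of the 34 genes was called, where 0.112% of all genes were, and 11 of the 34 had an unadjusted p under 0.05, against 14% of all genes. The mock call was kept in 1 of 6 fits that leave out a library, the one without mock replicate 4 of the line, and was lost under other settings too, such as without the filter (adjusted p = 0.117) and with median-ratio scaling (adjusted p = 0.0555). For GSTF14, wild type under mock read 50.8–65.8 TPM in the RGI1 set and 42.6–77.0 TPM in the RGF1 set, within the range of the RGI5 line under mock. The wild type of the RGI5 set lay above both, and what differed between sets cannot be told apart.

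The 100 nM RGF1 peptide gave no call among 35 genes in wild type in limma, where 0.14% of all genes were called, and 10 of the 35 had an unadjusted p under 0.05, against 1956 of the 19274 genes tested in all. GSTF6 read 498, 322 and 372 TPM with RGF1 and 230, 271 and 241 TPM under mock, so that all peptide libraries lay above all mock libraries, with the largest value in RGF1 replicate 2 (0.66, SE 0.14, adjusted p = 0.159 in limma). GSTF7 read 602, 406 and 490 TPM with RGF1 and 369, 375 and 353 TPM under mock (0.43, adjusted p = 0.298), and GSTF2 401, 316 and 329 TPM with RGF1 and 252, 260 and 211 TPM under mock (0.53, adjusted p = 0.138). GSTU25 read 36.4, 35.3 and 29.5 TPM with RGF1 and 25.3, 25.1 and 25.02 TPM under mock (0.40, adjusted p = 0.160), and GSTU10 19.7, 15.2 and 20.9 TPM with RGF1 and 13.7, 14.2 and 13.1 TPM under mock (0.41, adjusted p = 0.288). These values lay apart in each group but did not pass the test. In all, 6 of the 35 genes were higher and 4 lower without overlap, against 3.33% and 12.3% of all genes.

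GSTU12 read 6.31, 1.89 and 1.89 TPM with RGF1 and 1.22, 0.562 and 0.874 TPM under mock (1.08, adjusted p = 0.347 in limma). GSTU14 was the gene closest to a call, with 18.4, 18.6 and 20.4 TPM with RGF1 and 25.5, 30.1 and 27.3 TPM under mock (-0.51, adjusted p = 0.0793 in limma), and it was called lower in the single fit of 30 libraries (adjusted p = 0.00851). GSTU1, GSTU4 and GSTU8, called with rapamycin in the RGI1 line, had -0.13, -0.09 and -0.01 with RGF1. The response of the RGI1 line minus that of RGF1 was not called for any of 36 genes in limma, where 0.408% of all genes were called. This difference had an unadjusted p under 0.05 for 14 of the 36, against 2518 of the 20113 genes tested in all. It was 1.11 for GSTF7 (95% interval 0.40 to 1.81, adjusted p = 0.143), 1.05 for GSTF6 (adjusted p = 0.163) and 0.59 for GSTU1 (adjusted p = 0.0583), and GSTU1 was called without mock replicate 3 or without RGF1 replicate 2 of the RGF1 set, at adjusted p of 0.0376 and 0.0373.

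Genes of the same pathway were described from 6 lists of 66 genes, and calls came in comparisons that use the RGI1 set. With rapamycin in the RGI1 line, 3 of 10 tested genes of glutathione synthesis and recycling rose: GSH1, which makes gamma-glutamylcysteine in the rate-limiting step of glutathione synthesis, averaged 400 ± 19.9 TPM with rapamycin and 333 ± 5.75 TPM under mock (0.27), and the glutathione peroxidases GPX2 and GPX6 had 0.31 and 0.32. Of 11 camalexin and indole glucosinolate genes 3 rose. CYP71A12, which makes indole-3-acetonitrile from the oxime, averaged 8.03 ± 1.07 TPM with rapamycin and 1.66 ± 0.536 TPM under mock (1.78, adjusted p = 0.000261 in limma). CYP81F2, which hydroxylates indole glucosinolates, averaged 5.55 ± 1.12 and 2.73 ± 0.109 TPM (0.80), and the indole glucosinolate methyltransferase IGMT2 11.3 ± 1.87 and 3.21 ± 0.432 TPM (1.55). IGMT2 has close copies, so its reads may be shared.

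Of 11 TGA factors and detoxification genes, the oxophytodienoate reductase OPR1 rose in the RGI1 line with rapamycin (0.35), and of 5 tested flavonoid genes chalcone synthase (CHS, 0.67) and the regulator MYB12 (0.38) did. None of 12 other glutathione transferases (zeta, theta, lambda and related classes) and none of 9 transport and turnover genes was called there. No gene of any list fell, where 2.56% of all genes were called higher and 1.49% lower. The median log2 fold change was 0.05 for glutathione synthesis, 0.08 for the other transferases, 0.04 for transport, 0.10 for the TGA list, 0.12 for the camalexin list and 0.40 for the flavonoid list.

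Under mock, where 14.5% of all genes were called lower in the RGI1 line than in wild type and 2% higher, the line was lower in 4 of 10 genes of glutathione synthesis and recycling (GR1, GR2, GPX2 and GPX6, between -0.31 and -0.17), in 3 of 9 genes of conjugate transport (the vacuolar transporters ABCC1, ABCC2 and ABCC3, at -0.45, -0.39 and -0.43), in 3 of 11 of the TGA list (TGA1, OPR1 and OPR2, between -0.60 and -0.34), in 5 of 11 of the camalexin list, among them IGMT2 (-1.24), CYP81F2 (-1.17), CYP71A12 (-1.15) and the exporter PEN3 (-0.49), and in 3 of 5 flavonoid genes (CHS, F3H and FLS1, between -0.76 and -0.42). It was higher in 1 transport list gene, the glutathione-degrading enzyme GGCT2;1 (0.51), and in CYP79B2 (0.25), an enzyme at the head of indole glucosinolate and camalexin synthesis. Of the 12 other transferases, DHAR1, a dehydroascorbate reductase, and GSTL3 were higher (0.36 and 0.26), and GSTZ1 and GSTL1 lower (-0.27 and -0.74).

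The response of the RGI1 line exceeded that of wild type for IGMT2 (2.07), CYP71A12 (1.55), CYP81F2 (0.96), OPR1 (0.47) and ABCC3 (0.38), all called, where 0.82% of all genes were called higher. No gene of the glutathione synthesis, other transferase or flavonoid lists was called there. With rapamycin on both sides, IGMT2 and IGMT1 were higher in the RGI1 line (0.83 and 0.57) and ABCC1, ABCC2, TGA1, TGA5, GR1 and PEN3 lower, between -0.39 and -0.22, while GSTL3 was higher (0.28). Of all genes, 1.89% were called higher there and 6.15% lower. MYB12 was the gene called in the comparison of the RGI1 line response with the RGF1 response (0.75), where 0.408% of all genes were called. No list gene was called in the RGI5 set or with RGF1 in wild type.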

How the data were processed

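Transcript abundance was measured by stranded mRNA sequencing in 30 root libraries, 10 groups of 3. The authors deposited TPM for 40812 transcript models, a unit read from the values, since every library has the same total. Salmon is named, without version or role, per the submitters' processing notes, and the sources used here give no build or annotation for the table. TPM hold no depth, so no counting interval could be given. Columns were matched to samples by name, those of wild type in the RGI1 set by elimination, and 0 columns were left unused.

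TPM were summed over transcript models (32753 genes) in Python 3.11.15 with pandas 2.3.3, and log2(TPM + 1) was tested with limma 3.58.1 in R 4.3.3 (moderated with a trend) on genes at 1 TPM or more in at least 3 libraries of the fit. Each set was fitted alone, and contrasts across sets used all 30 libraries. P-values were adjusted by Benjamini-Hochberg over all genes, and a call is an adjusted p under 0.05. The procedure was tested on simulated data. Promoter windows of 300 bases and coding identities were read from TAIR10.1 by locus identifier with Biopython 1.88, in which all 41 members matched; 1 promoter sequence is not reported here. A tandem cluster allows at most 5 genes between neighbours.

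The members and lists were chosen with earlier results of these data known. Of 13 comparisons, 2 were added after values were seen. All members are accounted for, with values in every library for those called, and for each list of other genes at most 4 called genes, those of lowest p, were to be named; further called genes of these lists are named too and were chosen after their values were seen. Alternatives were pseudocounts of 0.1 and 5, no filter, a mean of at least 5 TPM, median-ratio scaling, a replicate block, a single fit of all libraries and leaving out each library.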

Additional observations from a re-analysis of the deposited data

Results flagged for a closer look

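The rapamycin response of the RGI1 line differed from that of wild type in limma's test of the difference, at an adjusted p under 0.05 over all genes, for 9 genes. In log2 units, line response minus wild-type response, it was 1.962 for GSTF6, 1.615 for GSTF7, 1.043 for GSTU10, 0.789 for GSTU25, 0.745 for GSTF2, 0.681 for GSTU24, 0.65 for GSTU4, 0.618 for GSTU2 and 0.45 for GSTU1. These values compare responses and not levels. With 1 µM rapamycin on both sides, the level was also called higher in the line for GSTF6, GSTF7, GSTU10, GSTU4 and GSTU1. All of the 9 except GSTU4 were called lower in the line under mock. The mock libraries of the line enter the difference of responses as well, so the 2 results are not independent. Groups hold 3 libraries, which is too few to test for outlying samples.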

How the results depend on the processing

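Of 192 alternative counts of called members, 166 were within 1.5 times the reported count, and no single member changed direction in 1063 refits. Of 49 called member results, 21 kept their call in every setting run. With all 30 libraries in a single fit, members called were 7 for rapamycin in the RGI1 line, 2 for its difference from wild type, 2 for the RGI1 line against wild type with rapamycin, 1 for RGF1, 1 for rapamycin in the RGI5 line, 4 for the RGI5 line against wild type under mock and 5 with rapamycin. The RGI5 line under mock had 0 without a filter and 0 with median-ratio scaling. A mean of at least 5 TPM gave 1 for the RGI1 line response minus the RGF1 response and 1 for the RGI5 line response minus the RGI1 line response, and a pseudocount of 5 gave 1 for the RGI5 line against wild type with rapamycin. The cause of these shifts was not tested.

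Leaving out each library in turn, calls ranged 9–13 for rapamycin in the RGI1 line, 13–17 for that line against wild type under mock and 5–7 with rapamycin, 5–12 for the difference of responses, 0–2 for the RGI5 line under mock and 0–1 with rapamycin, 0–2 for the RGI1 line response minus the RGF1 response, 0–2 for the RGI5 line response minus the RGI1 line response, and 0 to 0 elsewhere. Replicate numbers did not pair libraries: correlations of same-numbered deviations ran from -0.093 to 0.176. The replicate block gave 3 called members for the difference of responses, GSTF6, GSTF7 and GSTU10, with GSTU1, GSTU2, GSTU4, GSTU24, GSTU25 and GSTF2 not called (adjusted p in limma 0.0559–0.168). For the RGI5 line under mock it ended the call of GSTF14 (adjusted p = 0.0627 in limma), and GSTU5 was called in its place (0.0372). It moved no other count of calls by over 1.5 times. Depth, unknown here, limits the genes under 1 TPM.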

Other observations

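Wild-type roots under mock differed between the 3 sets for several members. GSTU4 averaged 14.2 TPM in the RGI1 set, 9.14 TPM in the RGF1 set and 3.65 TPM in the RGI5 set. GSTU5 averaged 60.9 TPM in the RGI1 set, 76.5 TPM in the RGF1 set and 33.8 TPM in the RGI5 set. Neither gene overlapped between sets. GSTF14 averaged 167 TPM in the RGI5 set, against 57.7 TPM in the RGI1 set and 55.7 TPM in the RGF1 set. These sets were not compared by a test, and whatever differed between them, the title of the mock included, cannot be told apart.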
